A study of Mus musculus with 3 samples.

Results

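Members of the tumour necrosis factor (TNF) superfamily were described as ligand sources and receptor-bearing cells in mouse muscle that had lost tissue and received an implant. The members were chosen by symbol: every gene whose symbol starts with Tnfsf or Tnfrsf followed by a digit, together with Tnf, Fas, Fasl, Lta and Ltb. Tnfsf11, Tnfrsf11a and Tnfrsf11b were left out by the same rule. The rule used no measured value and found 34 of the 32285 genes in the deposited matrices. They were 14 ligand genes, 19 receptor genes and the noncoding Tnfsf13os. Of the 34, 25 reached 10 CPM (counts scaled to a library and class total of 1000000, defined below) in at least 1 of the 12 classes of cells that were tested, and 9 stayed under that level in all 12. These 9 were Tnfsf4, Tnfsf15, Tnfsf18, Lta, Tnfrsf13c, Tnfrsf14, Tnfrsf17, Tnfrsf19 and Tnfsf13os.

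All 3 libraries came from 1 group. C57BL/6 wild-type mice carried a hindlimb volumetric muscle loss defect, a wound that removes a block of muscle, filled with PCL particles, a synthetic implant material, and the quadriceps with its fibrotic implant was taken at week 6. Dead cells were removed, the cells were split on CD45, the surface protein of blood-derived cells encoded by Ptprc, and the positive and negative fractions were mixed 1:1 before 3′ single-cell RNA sequencing. That mixing can set the shares of immune and stromal cells, and no uninjured, empty-defect or earlier sample was compared here. The comparisons are therefore between classes of cells inside the same libraries. Whether the 3 replicates are separate animals is not stated, and each p-value therefore reflects the spread among these 3 libraries alone, which may be technical.

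TNF superfamily ligands are made mostly as membrane proteins, act as trimers, and many can be cut from the cell surface. Their receptors fall into death receptors, which carry an intracellular death domain (such as Fas, Tnfrsf1a and Tnfrsf10b), receptors that recruit TRAF adaptors directly and turn on NF-kB (such as Tnfrsf1b, Tnfrsf4 and Tnfrsf9), and decoys that lack a working signalling tail. In injured muscle the family is known for inflammatory signalling by TNF, for costimulation of lymphocytes, and for the action of TWEAK (Tnfsf12) through its receptor Tnfrsf12a on muscle and stromal cells.

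The libraries held 6068, 8643 and 4996 barcodes with 136519688, 192348779 and 104482261 unique molecular identifiers (UMIs, each standing for 1 captured RNA molecule), and any pair of libraries shared 10 to 13 barcodes. After 708 barcodes failed the quality limits and 1093 were called doublets, 17955 cells were kept. Clusters were named from marker genes, with no member of the family among the genes used for clustering, and 17427 cells received a name. The 12 classes tested had at least 20 cells in every library: fibroblast-like (10194 cells), macrophage-like (3211), neutrophil-like (940), blood endothelial-like (851), monocyte-like (643), mural-like (317), muscle fibre-like (244), lymphatic endothelial-like (237), tenocyte-like (216), lymphocyte-like (135), and type 1 and type 2 conventional dendritic-like cells (cDC1-like, 107, and cDC2-like, 106). Median depth was 5107 UMIs in neutrophil-like cells, 1527.5 in muscle fibre-like cells and 26107.5 in fibroblast-like cells. Levels are in CPM, the UMIs of a gene as a share of all UMIs summed over a class in 1 library, scaled to 1000000, given as mean ± SD over the 3 libraries. They are not divided by gene length, so a level is compared between classes for the same gene and not between genes.

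RNA of other classes was present in some sums. The summed neutrophil markers stood at 77174 to 84431 CPM in neutrophil-like cells, at 2227 to 9006 CPM in monocyte-like cells and at 2691 to 5618 CPM in lymphocyte-like cells. Fibroblast markers reached 5046 to 6008 CPM in mural-like cells, against 55691 to 61971 CPM in fibroblast-like cells. Ptprc was at 4.91 to 126 CPM in muscle fibre-like cells, with the highest value in replicate 3. The part of these values in the member levels below was not tested.

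Promoter sequence bears on the family because NF-kB is both a target of many of its receptors and a regulator of several of its genes. The RefSeq promoter table (build GRCm38.p6) held 27 of the 34 members. Tnfrsf10b, Tnfrsf22, Tnfrsf26, Tnfsf4, Tnfsf9, Tnfsf12 and Tnfsf13os were not in it. The 250 bases before each start were searched on both strands for the 10-letter NF-kB consensus. The consensus was found for 3 of the 27 members (11.1%), against 1204 of 27025 genes (4.46%). All 3 genes were called higher in lymphocyte-like cells, as were 16 of the 25 members tested there (below) and 16.4% of all genes. Each was called higher in other classes too. Ltb and Tnfrsf8 were so in neutrophil-like and monocyte-like cells, Tnfrsf8 also in macrophage-like and lymphatic endothelial-like cells, and Tnfrsf9 in blood endothelial-like cells. Shown are the windows of all members with a match. They lie at chr4:145315165-145315414 on the minus strand (Tnfrsf8), chr4:150927749-150927998 on the plus strand (Tnfrsf9) and chr17:35194257-35194506 on the plus strand (Ltb). Each runs 5′ to 3′ on the strand of its gene and ends at the base before the start, and capitals mark the consensus match.
Tnfrsf8: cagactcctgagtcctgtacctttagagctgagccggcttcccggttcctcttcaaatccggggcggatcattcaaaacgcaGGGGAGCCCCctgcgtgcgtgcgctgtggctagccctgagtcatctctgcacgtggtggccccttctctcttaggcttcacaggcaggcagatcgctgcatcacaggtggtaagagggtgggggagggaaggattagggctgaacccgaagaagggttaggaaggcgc
Tnfrsf9: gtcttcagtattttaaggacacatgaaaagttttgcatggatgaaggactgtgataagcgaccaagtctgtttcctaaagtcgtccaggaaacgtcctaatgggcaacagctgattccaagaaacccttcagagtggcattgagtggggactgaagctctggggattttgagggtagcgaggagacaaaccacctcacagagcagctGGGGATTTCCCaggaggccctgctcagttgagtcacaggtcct
Ltb: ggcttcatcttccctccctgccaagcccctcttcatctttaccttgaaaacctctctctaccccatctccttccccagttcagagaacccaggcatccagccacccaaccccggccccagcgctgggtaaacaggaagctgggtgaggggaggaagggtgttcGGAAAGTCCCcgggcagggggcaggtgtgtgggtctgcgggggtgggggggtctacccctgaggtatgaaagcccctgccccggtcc
The match lay 168 to 159 bases before the start of Tnfrsf8, 43 to 33 bases before that of Tnfrsf9, where 3 overlapping matches span 11 bases, and 87 to 78 bases before that of Ltb. A match describes letters in a window and is not a measured binding site.

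Immune-like cells (5261 cells of all immune classes) held the higher levels of the ligands Tnf, Ltb, Fasl, Tnfsf13 and Tnfsf14 and of the receptor Tnfrsf1b, and stromal-like cells (11922 cells) held the higher levels of Tnfsf8, Tnfsf13b, Tnfsf15, Tnfrsf12a and the TRAIL pair Tnfsf10 and Tnfrsf10b. For each library the UMIs of either side were added up, and the sums were compared by edgeR's quasi-likelihood test with the library as a block. A gene was called when its Benjamini-Hochberg adjusted p over all genes tested was under 0.05 and the difference was at least 1 on the log2 scale. Of the 32 members that passed the filter on low counts, 19 were called higher in immune-like cells, where 19.4% of all genes tested were, and 7 were called lower, where 29.5% of all genes were. The members' median difference was 1.63 (log2), against -0.12 over all genes. The 2 members that did not pass the filter were Tnfrsf17 and Tnfsf18.

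Tnf, the inflammatory cytokine that names the family, stood at 126, 125 and 87.5 CPM in the immune-like sums and at 0.682 ± 0.129 CPM in the stromal-like sums (n = 3). The difference was 7.45 ± 0.19 (log2 ± SE, adjusted p = 2.16e-07). The groups did not overlap in any of the members named here as higher or lower between the sides. Ltb, lymphotoxin beta, was 7.17 ± 0.12 higher (31.3 ± 10.7 against 0.223 ± 0.0529 CPM, adjusted p = 1.05e-07). Tnfrsf1b, the TNF receptor found mainly on immune cells and endothelium, was 4.07 ± 0.10 higher (395 ± 12.5 against 24.3 ± 1.53 CPM, adjusted p = 1.89e-07). Tnfsf13, the B-cell survival ligand APRIL, was 3.69 ± 0.08 higher (90.5 ± 12 against 7.25 ± 0.972 CPM, adjusted p = 1.28e-07).

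In the other direction, Tnfsf8, the ligand of the lymphocyte receptor CD30, differed by -4.36 ± 0.14 (2.80 ± 1.19 against 60.9 ± 13.9 CPM, adjusted p = 4.15e-07). Tnfrsf12a, the TWEAK receptor, differed by -1.40 ± 0.10 (15.9 ± 1.33 against 43.9 ± 8.98 CPM, adjusted p = 1.81e-05). Tnfsf13b, the B-cell survival ligand BAFF, differed by -1.47 ± 0.10 (5.86 ± 0.610 against 16.9 ± 0.207 CPM, adjusted p = 2.09e-05). Tnfrsf1a, the widely expressed TNF receptor with a death domain, was present on both sides at 85.0 ± 13.0 and 124 ± 7.43 CPM, and its difference of -0.51 ± 0.08 was under the size needed for a call (adjusted p = 0.000957). These sums weight each class by its captured cells. Equal weights were fitted on the sums of the tested classes, where 25 of the 32 members passed the filter. Lta, Tnfsf4, Tnfrsf13c, Tnfrsf14 and Tnfsf13os, called higher between the sides, and Tnfsf15 and Tnfrsf19, called lower, were not tested there. With every class weighted equally, 10 of the 25 members were called higher and 4 lower. Tnfsf12 turned from 0.76 to -1.45 and Tnfsf13b from -1.47 to 1.48. The calls of Tnfsf13 (0.88) and Tnfrsf12a (-0.90), under the size for a call, were then lost. Those of Fasl and Ltb were lost too, each with an adjusted p of 1. Both genes had no UMI in cDC1-like and mural-like cells, so no fold change is given and nothing is concluded from these 2 losses.

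**Figure D1:**
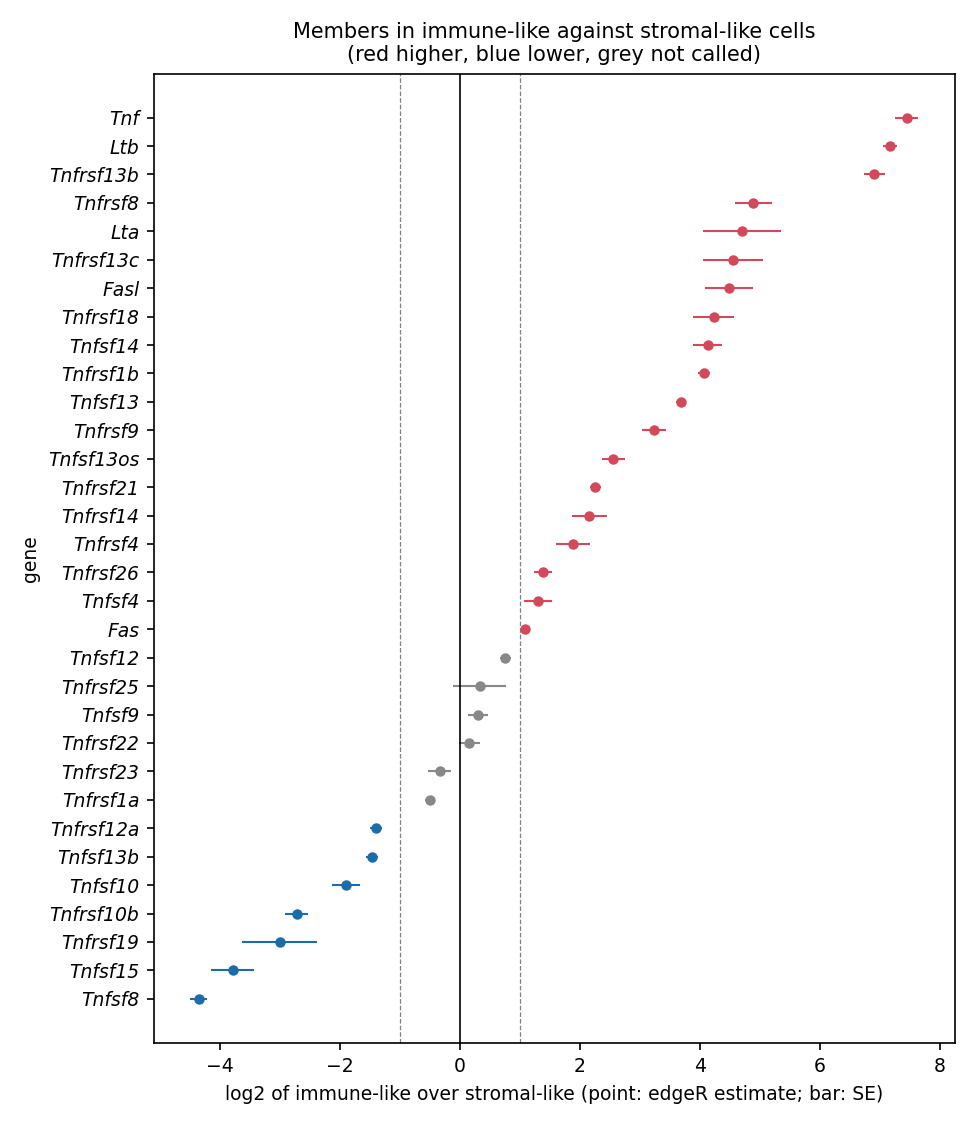
Difference between immune-like and stromal-like sums for the 32 members tested (log2 on the horizontal axis, 1 row per gene), points giving the edgeR estimate over 3 libraries and bars its SE, with dashed lines at 1 and -1. The 19 red points were called higher, with Tnf, Ltb and Tnfrsf13b highest, the 7 blue points were called lower, with Tnfsf8 lowest, and the 6 grey points were not called.

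The classes were then set against each other in a joint fit, in which a class is compared with the mean of the log levels of the other 11 classes. In this fit a class can be called higher although a few others lie far above it: of 84 higher calls among 25 members that passed the filter, 56 were also above the plain mean of the other classes in 3 of 3 libraries, and all 34 lower calls were below it in 3 of 3. Over all contrasts 18.8% of gene tests were called higher and 10.9% lower, and the percentages after each class below are the shares of all genes called in that class. Lymphocyte-like cells had 16 of 25 members called higher, where 16.4% of all genes were, and neutrophil-like cells had 13, where 24.3% of all genes were. The filter on low counts can be passed through a single class. Fasl, Tnfrsf4 and Tnfrsf25 reached 10 CPM in lymphocyte-like cells only, and Tnfrsf22 in blood endothelial-like cells only. Their higher calls in those classes are therefore not independent of the filter. Macrophage-like and monocyte-like cells each had 9 called higher (14.2% and 14.7% of all genes), as did blood endothelial-like cells (19.0%). Fibroblast-like cells had 7 (26.6% of all genes), mural-like and lymphatic endothelial-like cells 5 each (22.6% and 18.8%), cDC2-like cells 5 (11.8%), cDC1-like cells 3 (14.8%), tenocyte-like cells 3 (23.1%) and muscle fibre-like cells 0 (18.9%). Lower calls were 7 in lymphatic endothelial-like cells (9.16%), 4 each in fibroblast-like (6.22%), lymphocyte-like (9.15%), mural-like (7.61%) and muscle fibre-like cells (24.1%), 3 each in cDC2-like (7.54%) and tenocyte-like cells (7.7%), 2 each in blood endothelial-like (7.79%) and cDC1-like cells (8.88%), and 1 in neutrophil-like cells (26.1%). The numbers of higher and lower calls were 84 and 34 in this fit, 78 and 77 with DESeq2 and 72 and 138 against all other cells pooled. By edgeR, macrophage-like and monocyte-like cells had 0 called lower (6.6% and 9.48% of all genes), with 1 and 0 members lower at an unadjusted p under 0.05 and 4 and 5 called lower by DESeq2. The 0 higher calls in muscle fibre-like cells were 0 at an unadjusted p under 0.05 and 0 by DESeq2. The members' median difference was 3.70 in lymphocyte-like and 1.75 in neutrophil-like cells, against 0.03 and -0.25 over all genes, and -3.38 against -0.75 in muscle fibre-like cells. The medians include members at or under 3 UMIs in some classes, for which no fold change is given below. They also include Fasl, Tnfrsf4 and Tnfrsf25, so the lymphocyte-like median is not independent of the filter. Without scaling factors the median of all genes moves by -0.96 in neutrophil-like, -0.49 in muscle fibre-like, 0.32 in lymphocyte-like and 0.26 in lymphatic endothelial-like cells, and by 0.20 or less in the other classes. Where a member had at most 3 UMIs in some classes, its level in each class is given below with the adjusted p of the fit, and no fold change. The order of the classes below is that of unscaled CPM. With the scaling factors of the fit applied, 23 of the 25 members at 10 CPM or more kept the class with the highest mean, and the other two, Ltb and Tnfrsf1a, were then highest in neutrophil-like cells.

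**Figure D2:**
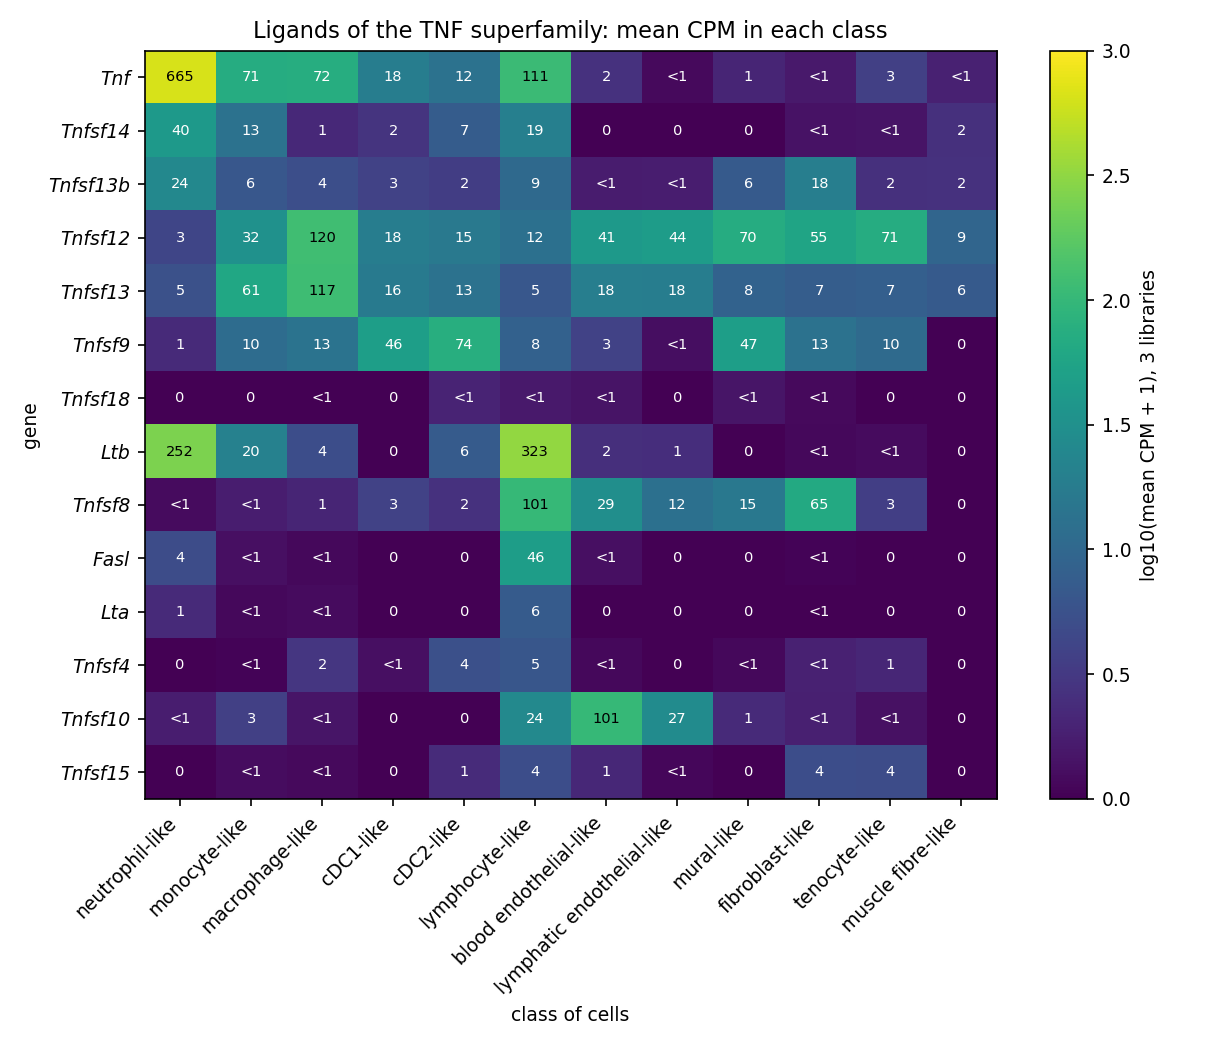
Heat map of the ligand genes (rows) over the classes of cells (columns), colour giving log10 of the mean CPM over 3 libraries plus 1 and the printed numbers the mean CPM. Tnf stands out in neutrophil-like cells, Ltb in lymphocyte-like and neutrophil-like cells, Tnfsf10 in blood endothelial-like cells, Tnfsf12 and Tnfsf13 in macrophage-like cells and Tnfsf8 in fibroblast-like and lymphocyte-like cells.

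Among the ligands, Tnf was highest in neutrophil-like cells, at 579, 709 and 707 CPM. Lymphocyte-like cells followed at 117, 46.8 and 168 CPM, macrophage-like cells at 81.9, 68.1 and 66.9 CPM, and monocyte-like cells at 70.5 ± 27.6 CPM. The neutrophil-like values lay above every other tested class in all 3 libraries, while the next 3 classes overlapped. The call in neutrophil-like cells had an adjusted p of 4.17e-28, and those in lymphocyte-like, macrophage-like and monocyte-like cells had 5.95e-11, 5.08e-14 and 1.15e-12. Among classes too small to test, natural killer (NK)-like cells held 248 ± 178 CPM and mast or basophil-like cells 192 ± 46.9 CPM. Of the 42 NK-like cells, 10 came from a cluster whose next-best marker list was that of neutrophils. The part of neutrophil RNA in the NK-like level was not tested. Tnf was called lower in 5 stromal classes, blood and lymphatic endothelial-like, fibroblast-like, mural-like and tenocyte-like, at 0.190 to 2.73 CPM. All 5 of these lower calls were lost without replicate 3, and all but that in lymphatic endothelial-like cells without replicate 1 (adjusted p = 1).

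Cells with at least 1 Tnf UMI made up 48.5% of neutrophil-like cells, 32.4% of macrophage-like cells and 1.63% of fibroblast-like cells. The part of RNA from other cells in these shares was not tested. Median depths were 5107, 12257 and 26107.5 UMIs. After every cell was thinned to 3000 UMIs, leaving out 113, 549 and 431 shallower cells, the shares were 42.2%, 13.3% and 0.183%. Macrophage-like cells held 44.7% ± 12.7 of all Tnf UMIs in named cells and neutrophil-like cells 40.6% ± 10.8, shares that also count how many cells and UMIs of each class were captured.

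The lymphotoxins are ligands of lymphocytes that shape lymphoid tissue. Ltb was 282, 283 and 405 CPM in lymphocyte-like cells and 254, 253 and 249 CPM in neutrophil-like cells. The lowest lymphocyte-like value lay above the highest neutrophil-like value in unscaled CPM, but with the scaling factors of the fit the order turned, to 234, 229 and 335 CPM against 508, 439 and 421 CPM, again with no overlap. Both classes were called higher (adjusted p = 2.37e-17 and 9.13e-22). Monocyte-like cells held 19.6 ± 12.5 CPM and were called higher too, although below the plain mean of the other classes in all 3 libraries. Within the lymphocyte-like cells Ltb was 542 ± 119 CPM in T-like, 424 ± 147 CPM in type 2 innate lymphoid (ILC2)-like and 136 ± 39.0 CPM in NK-like cells. Lta, which pairs with Ltb in the membrane heterotrimer, stayed at 6.24 ± 8.75 CPM in lymphocyte-like cells. It was highest in T-like cells at 37.8, 18.8 and 0 CPM, values that rest on only 22, 11 and 7 cells.

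Fasl and Tnfsf10 (TRAIL) are the ligands that trigger cell death through death receptors. Fasl was found in lymphocyte-like cells at 46.9, 51.7 and 39.5 CPM, with 4.01 ± 0.913 CPM in the next class, neutrophil-like cells. The 2 classes did not overlap, and both were called higher (adjusted p = 4.94e-11 and 2.76e-06). NK-like cells, the cytotoxic lymphocytes, held 96.7, 92.5 and 95.5 CPM and T-like cells 33.1 ± 20.4 CPM. Lymphocyte-like cells held 53.3% ± 0.833 of all Fasl UMIs in named cells.

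Tnfsf10 had its highest levels of the tested classes in endothelial-like and lymphocyte-like cells. Blood endothelial-like cells held 86.3, 92.4 and 123 CPM, lymphatic endothelial-like cells 27.1 ± 10.1 CPM and lymphocyte-like cells 24.5 ± 13.8 CPM, and all 3 were called higher (adjusted p = 1.05e-21, 1.25e-12 and 4.69e-08). The blood endothelial-like values lay above all the others, and the other 2 classes overlapped. Blood endothelial-like cells held 68.5% ± 3.70 of the Tnfsf10 UMIs in named cells.

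Tnfsf8 (CD30 ligand), Tnfsf9 (CD137 ligand), Tnfsf4 (OX40 ligand), Tnfsf14 (LIGHT), Tnfsf15 (TL1A) and Tnfsf18 (GITR ligand) are costimulatory ligands for lymphocyte receptors. Tnfsf8 was split between lymphocyte-like cells at 159, 19.7 and 123 CPM and fibroblast-like cells at 83.7, 51.7 and 58.5 CPM. These classes overlapped, since lymphocyte-like cells of replicate 2 fell under every fibroblast-like value, and both were called higher (adjusted p = 1.07e-07 and 6.15e-12). Fibroblast-like cells held 95.3% ± 2.4 of the Tnfsf8 UMIs in named cells. Perineurial-like cells, the sheath cells of nerve bundles, were too few to test (18 cells) and held 448, 129 and 1660 CPM. Blood endothelial-like cells (29.2 ± 19.7 CPM), mural-like cells (14.7 ± 13.5 CPM) and lymphatic endothelial-like cells (0.570, 33.2 and 1.82 CPM) were called higher as well, but against all other cells pooled the differences were -1.02, -1.98 and -2.10 (log2), and in lymphatic endothelial-like cells replicate 2 held the level. The mural-like call was also lost without replicate 1 (1.80) or replicate 3 (2.48).

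Tnfsf9 was highest in cDC2-like cells at 82.5, 33.2 and 107 CPM, followed by mural-like cells at 22.9, 76.8 and 40.1 CPM and cDC1-like cells at 53.4, 26.9 and 58.9 CPM. The 3 classes overlapped and each was called higher (adjusted p = 2.30e-09, 1.31e-08 and 1.65e-06). Tnfsf14 was 42.1, 34.9 and 41.9 CPM in neutrophil-like cells, 18.7 ± 10.2 CPM in lymphocyte-like and 12.6 ± 4.20 CPM in monocyte-like cells, and the neutrophil-like values lay above both (adjusted p = 6.00e-16). Tnfsf4, Tnfsf15 and Tnfsf18 reached at most 5.31, 4.17 and 0.991 CPM in a tested class. Outside these classes Tnfsf4 was 78.6 ± 122 CPM in migratory dendritic-like cells, where replicate 2 alone held 219.6 CPM from 3 cells, and 26.3 ± 6.88 CPM in ILC2-like cells. Tnfsf15 was 67.1, 67.7 and 44.9 CPM in perineurial-like cells.

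Tnfsf12 (TWEAK), Tnfsf13 (APRIL) and Tnfsf13b (BAFF) had their own sources. Tnfsf12 was 121, 115 and 125 CPM in macrophage-like cells, above every other tested class, a difference of 2.18 ± 0.12 (log2 ± SE, adjusted p = 1.37e-16). It was the most widely found of the 3, at 10 CPM or more in 10 of the 12 classes, with 71.1 ± 24.0 CPM in tenocyte-like, 70.2 ± 11.6 CPM in mural-like and 55.2 ± 3.45 CPM in fibroblast-like cells. Those 3 classes overlapped and were called higher too, by 1.46 ± 0.17, 1.31 ± 0.16 and 1.13 ± 0.13, but against all other cells pooled the differences were 0.23, 0.06 and -0.33 and not called. Neutrophil-like cells were at 3.22 CPM and differed by -2.36 ± 0.34 (adjusted p = 2.04e-07).

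Tnfsf13 was 113, 114 and 122 CPM in macrophage-like cells and 58.9, 49.8 and 74.2 CPM in monocyte-like cells. Both were called higher, by 3.28 ± 0.13 (adjusted p = 2.42e-20) and 2.28 ± 0.17 (adjusted p = 1.74e-13), and the 2 classes did not overlap. Fibroblast-like cells differed by -1.08 ± 0.18 (adjusted p = 4.46e-06). Tnfsf12 and Tnfsf13 are neighbours on chromosome 11, and the antisense Tnfsf13os runs across them. Tnfsf13os was highest in monocyte-like and macrophage-like cells at 7.41 ± 1.80 and 3.99 ± 0.456 CPM. The sources used here do not say whether the counting used strand, so reads of these overlapping genes may be split between them. Tnfsf13b was 29.6, 24.3 and 19.2 CPM in neutrophil-like cells and 18.7, 18.2 and 17.9 CPM in fibroblast-like cells, both called higher (adjusted p = 1.45e-14 and 2.00e-13), and fibroblast-like cells held 90.7% of its UMIs in named cells.

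**Figure D3:**
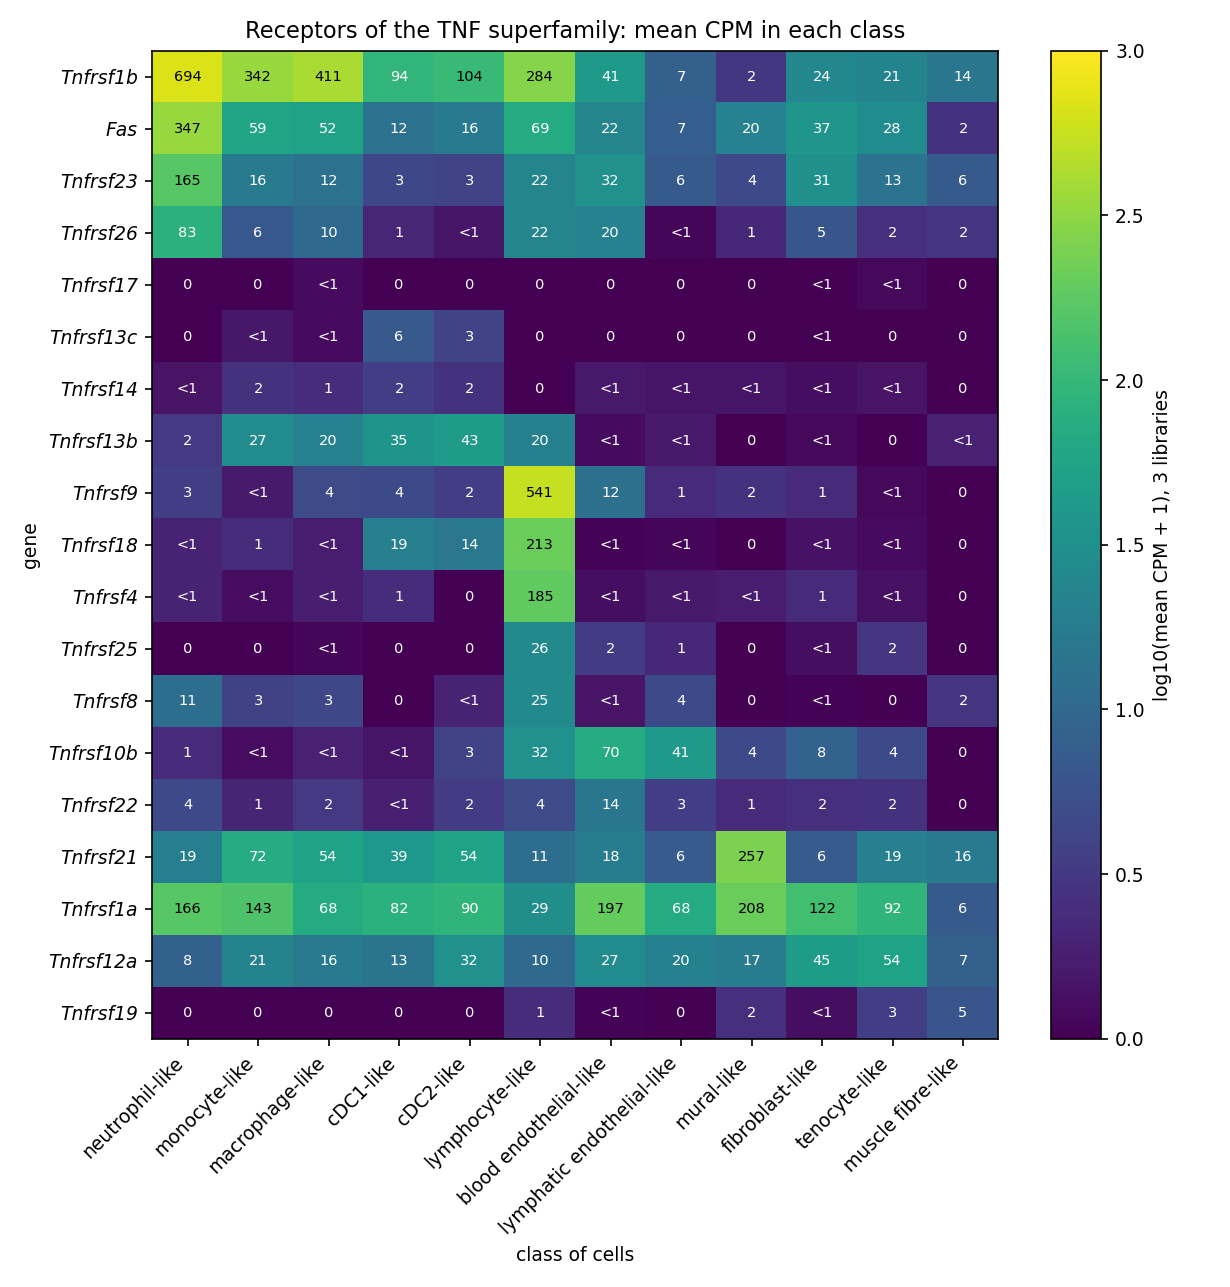
Heat map of the receptor genes (rows) over the classes of cells (columns), colour giving log10 of the mean CPM over 3 libraries plus 1 and the printed numbers the mean CPM. Tnfrsf1a and Tnfrsf1b cover most classes, Fas, Tnfrsf23 and Tnfrsf26 stand out in neutrophil-like cells, Tnfrsf21 in mural-like cells, and Tnfrsf4, Tnfrsf9 and Tnfrsf18 in lymphocyte-like cells.

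Both TNF receptors were broadly present. Tnfrsf1b was 654, 740 and 688 CPM in neutrophil-like cells and 411 ± 19.6 CPM in macrophage-like cells, with no overlap. Differences were 4.84 ± 0.11 (adjusted p = 3.20e-28) in neutrophil-like, 2.95 ± 0.12 (adjusted p = 1.72e-20) in macrophage-like, 2.68 ± 0.13 in monocyte-like and 2.18 ± 0.16 in lymphocyte-like cells. It was lowest in mural-like cells at 2.04 CPM, a difference of -5.23 ± 0.32 (adjusted p = 9.30e-16), and was also called lower in fibroblast-like, lymphatic endothelial-like, tenocyte-like and muscle fibre-like cells.

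Tnfrsf1a was 232, 221 and 171 CPM in mural-like cells and 192, 185 and 214 CPM in blood endothelial-like cells, the 2 highest means in unscaled CPM, which overlapped. Differences were 1.36 ± 0.12 (adjusted p = 5.97e-12) and 1.24 ± 0.11 (adjusted p = 2.35e-11). Neutrophil-like cells at 166 ± 16.9 CPM were called higher by 2.09 ± 0.12, and with the scaling factors of the fit they were highest, at 301 ± 47.4 against 190 ± 31.7 CPM in mural-like cells, with no overlap. Lymphocyte-like cells at 29.4 CPM and muscle fibre-like cells at 6.01 CPM were called lower, by -1.92 ± 0.23 and -3.56 ± 0.38 (log2).

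Fas, the receptor of Fasl, was 324, 377 and 341 CPM in neutrophil-like cells and at most 69.2 ± 15.1 CPM in any other tested class. The neutrophil-like values lay above all of these (adjusted p = 3.20e-28). Lymphocyte-like and monocyte-like cells (59.4 ± 8.11 CPM) were called higher too, and cDC1-like, cDC2-like, lymphatic endothelial-like and muscle fibre-like cells were called lower, though without replicate 1 the cDC2-like difference was -0.51 and not called. Fas reached 10 CPM in 10 of 12 classes, while Fasl did so in lymphocyte-like cells only.

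Tnfrsf10b, the mouse TRAIL receptor with a death domain, was called higher in the same 3 classes as its ligand. It was 66.5, 74.5 and 69.7 CPM in blood endothelial-like cells, 43.9, 40.3 and 39.1 CPM in lymphatic endothelial-like cells and 27.1, 41.9 and 27.2 CPM in lymphocyte-like cells. The blood endothelial-like values lay above the others, and all 3 classes were called higher (adjusted p = 2.00e-21, 6.89e-16 and 4.93e-09). Fibroblast-like cells, at 7.75 ± 0.431 CPM, were also called higher, but against all other cells pooled the difference was -0.37.

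Tnfrsf22 and Tnfrsf23 are decoy receptors for TRAIL, and Tnfrsf26 is a closely related neighbour in the same cluster on chromosome 7. Tnfrsf23 was 180, 165 and 150 CPM in neutrophil-like cells, against 31.7 ± 6.36 and 31.2 ± 1.22 CPM in blood endothelial-like and fibroblast-like cells, a difference of 4.99 ± 0.17 (adjusted p = 3.01e-23). Tnfrsf26 was 82.9 ± 9.08 CPM in neutrophil-like cells (adjusted p = 8.43e-22), and Tnfrsf22 reached 14.1 ± 1.42 CPM in blood endothelial-like cells (adjusted p = 5.46e-11). These values are uncertain: the 3 genes are near-copies, and E230032D23Rik, annotated on the opposite strand of them, stood at 102 CPM in neutrophil-like cells.

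Tnfrsf21 (death receptor 6) was highest in mural-like cells, at 247, 305 and 218 CPM. Monocyte-like cells followed at 71.5 ± 11 CPM, with no overlap, and the difference in mural-like cells was 3.52 ± 0.18 (adjusted p = 4.92e-18). Monocyte-like, macrophage-like and cDC2-like cells were called higher by 1.51 ± 0.22, 1.05 ± 0.19 and 1.02 ± 0.33. The macrophage-like call was lost without replicate 2 (0.95), and the cDC2-like call without replicate 2 (0.90) or replicate 3 (0.82). Fibroblast-like cells, whose markers were present in the mural-like sums, held 6.47 CPM of Tnfrsf21, a difference of -2.08 ± 0.24 (adjusted p = 2.24e-09).

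**Figure D4:**
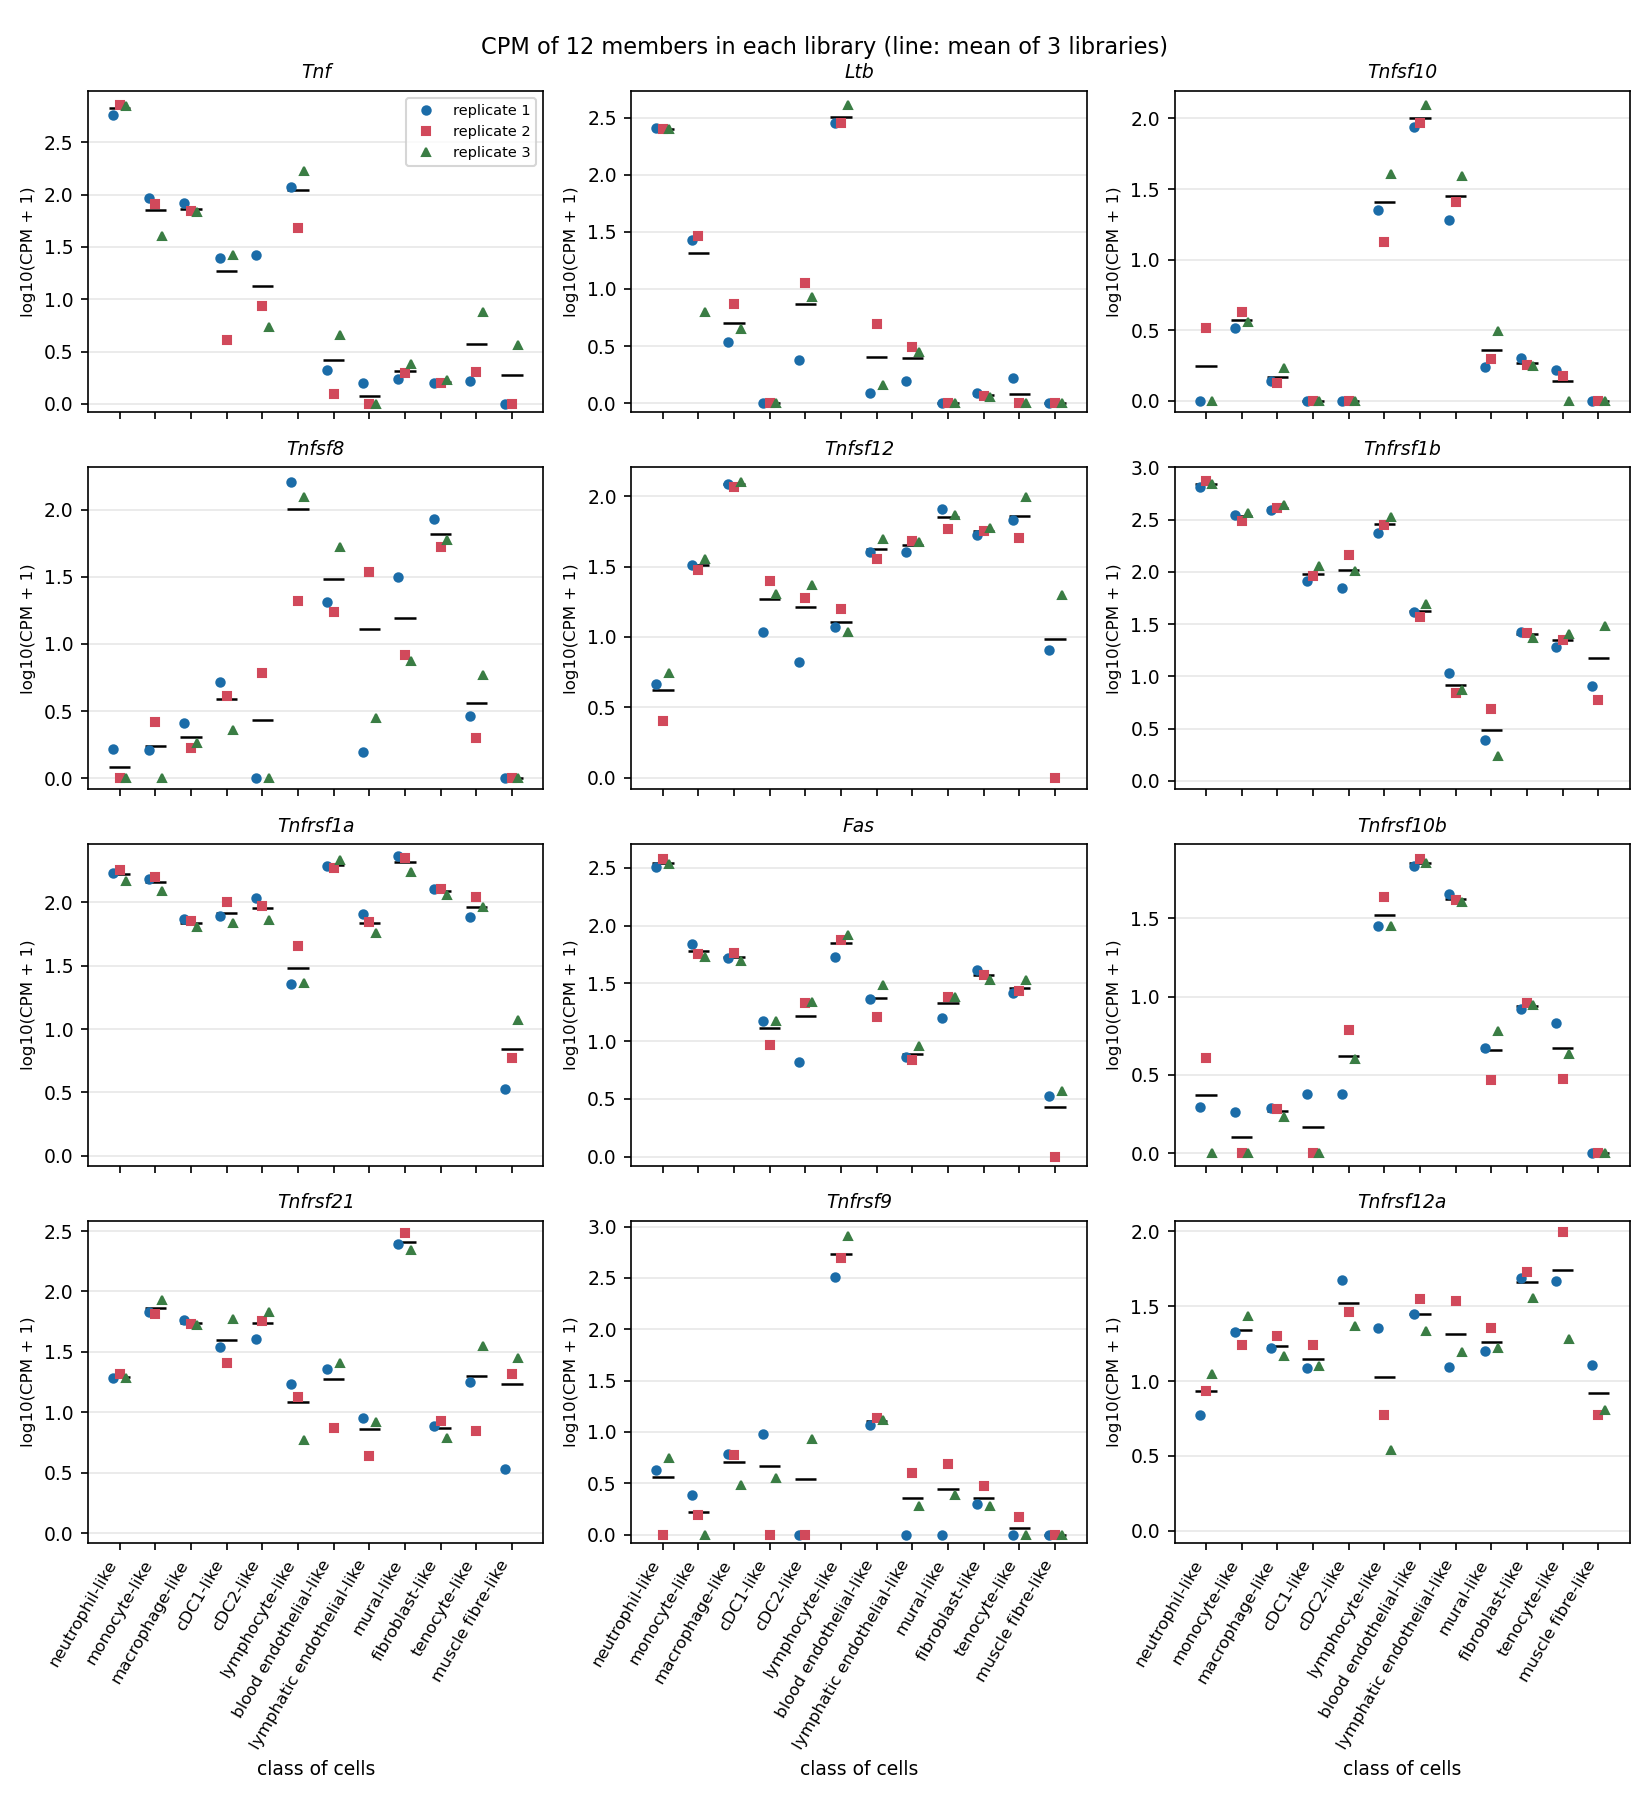
Level of 12 members by class of cells, each library as a point (its shape and colour giving the replicate) and the mean of 3 libraries as a line, as log10 of CPM plus 1. Tnf, Tnfrsf1b and Fas are highest in neutrophil-like cells in every library, and the lymphocyte-like value of Tnfsf8 falls in replicate 2.

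The costimulatory receptors Tnfrsf4, Tnfrsf8, Tnfrsf9, Tnfrsf18 and Tnfrsf25 had their highest mean level of the 12 tested classes in lymphocyte-like cells. Tnfrsf9 (CD137) was 321, 493 and 810 CPM there and 11.8 ± 1.08 CPM in blood endothelial-like cells, the next class, with no overlap (adjusted p = 5.63e-21). Camta1 is annotated on the opposite strand of Tnfrsf9. Tnfrsf18 (GITR) was 168, 266 and 205 CPM, with 19.3 ± 3.70 and 14.3 ± 1.47 CPM in cDC1-like and cDC2-like cells (adjusted p in lymphocyte-like cells = 1.81e-22). Tnfrsf4 (OX40) was 84.8, 204 and 267 CPM (adjusted p = 2.71e-20), and no other tested class passed 3.11 CPM in a library. Tnfrsf25, the TL1A receptor, was 25.3, 9.85 and 42.0 CPM (adjusted p = 9.21e-09). Tnfrsf8 (CD30) was 25.4 ± 10.2 CPM in lymphocyte-like and 11.1 ± 6.80 CPM in neutrophil-like cells, which overlapped, and both were called higher (adjusted p = 3.67e-09 and 5.65e-11).

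Within the lymphocyte-like cells Tnfrsf4, Tnfrsf8, Tnfrsf9 and Tnfrsf18 were highest in a cluster of 28 cells that could not be assigned to a single lymphocyte type. Its leading genes included Il2ra, Ctla4, Ikzf2 and Icos. Tnfrsf9 was 1531 ± 184 CPM there, against 329 ± 82.0 CPM in NK-like, 162 ± 147 CPM in ILC2-like and 70.9 ± 33.1 CPM in T-like cells. Tnfrsf4 was 645 ± 139 CPM there and 156 ± 94.4 CPM in T-like cells, Tnfrsf18 was 449 ± 135 and 181 ± 74.3 CPM, and Tnfrsf8 was 104 ± 10.2 CPM there and 3.71 ± 3.21 CPM in NK-like cells, the next of these groups. Of its 28 cells, 20 had a UMI of Foxp3, the transcription factor of regulatory T cells, against 4 of 40 T-like cells. Foxp3 was looked up after the cluster's values had been seen. At 8 cells in its smallest library the cluster was not tested.

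The receptors of the B-cell survival ligands are Tnfrsf13b (TACI), Tnfrsf13c (BAFF receptor) and Tnfrsf17 (BCMA). Tnfrsf13b was 43.4, 43.5 and 43.1 CPM in cDC2-like, 33.7, 40.3 and 29.5 CPM in cDC1-like, 26.9 ± 2.64 CPM in monocyte-like, 20.2 ± 2.09 CPM in macrophage-like and 20.1 ± 9.40 CPM in lymphocyte-like cells. All 5 were called higher (largest adjusted p = 3.07e-07), and it stood at 0.171 ± 0.0423 CPM in the stromal-like sums. Tnfrsf13c reached 5.91 CPM in cDC1-like cells and Tnfrsf17 0.219 CPM in macrophage-like cells. No named class met the markers of B cells.

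Tnfrsf12a (Fn14) was highest in tenocyte-like cells at 45.8, 98.2 and 18 CPM and in fibroblast-like cells at 48.1, 52.2 and 35.0 CPM. The classes overlapped, and both were called higher, by 1.78 ± 0.23 (adjusted p = 4.89e-08) and 1.39 ± 0.17 (adjusted p = 1.20e-08). Satellite or myoblast-like cells, the muscle stem and progenitor cells, were too few to test (53 cells) and held 80.4, 175 and 149 CPM. Tnfrsf14, a LIGHT receptor, and Tnfrsf19 reached at most 2.48 and 5.11 CPM in a tested class, the latter in muscle fibre-like cells. Tnfrsf19 was 12.3 ± 4.34 CPM in satellite or myoblast-like cells.

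Known ligand and receptor pairs were read at a level of 10 CPM in each of the 12 classes, as a description of RNA levels with no test. Tnf reached that level in 6 classes, and all 6 also held Tnfrsf1a and Tnfrsf1b at that level. Tnfsf12 reached it in 10 classes and Tnfrsf12a in 9, with 9 shared. Tnfsf10 and Tnfrsf10b met in the same 3 classes, blood endothelial-like, lymphatic endothelial-like and lymphocyte-like. Fasl and Fas met in lymphocyte-like cells, as did Tnfsf8 and Tnfrsf8. Tnfsf9 reached the level in 6 classes and its receptor Tnfrsf9 in 2, with none shared. Tnfsf13b reached it in 2 classes and Tnfrsf13b in 5, also with none shared, whereas Tnfsf13 and Tnfrsf13b met in 4. These counts are of unscaled CPM and depend on the cut. Lymphocyte-like cells lay just under it for Tnfsf13b (9.47 CPM, beside 20.1 CPM of Tnfrsf13b). The same held there for Tnfrsf12a (9.69 CPM, beside 11.8 CPM of Tnfsf12). Tnfsf14 had a source in 3 classes while Tnfrsf14 had none at that level. Tnfsf4, Tnfsf15 and Tnfsf18 had no source where Tnfrsf4, Tnfrsf25 and Tnfrsf18 did. Ltbr, the lymphotoxin beta receptor, lies outside the symbol rule and was not paired with Ltb or Tnfsf14 here. It stood above that level, at 36.0, 38.5 and 34.5 CPM, in macrophage-like subclusters 0, 2 and 3 (described below).

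By RefSeq gene order, 17 members form 10 neighbouring pairs, and 2 of these pairs had their highest mean CPM in the same tested class: Tnfsf12 with Tnfsf13 in macrophage-like cells, and Tnfrsf4 with Tnfrsf18 in lymphocyte-like cells. With the scaling factors of the fit Ltb joins its neighbour Tnf, highest in neutrophil-like cells. For Tnfsf8, Tnfsf15, Tnfsf4, Tnfsf18, Lta and Tnfrsf8 the highest class overlapped the next in CPM, so their place in this count is not fixed.

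Macrophage-like cells were split into subclusters, and 3 were compared: subcluster 0 (748 cells, led by Ccl24 and Vcan), subcluster 2 (694 cells, led by Mmp12 and Gpnmb) and subcluster 3 (673 cells, led by Mrc1 and Pdgfc). Another 4 were left out for low depth, genes of other classes or few cells. Among 57 tests of 19 members, 5 were called higher and 5 lower, where 3.47% and 3.55% of all tests were. Tnf was 24.1, 42.5 and 22.3 CPM in subcluster 3, against 103, 56.9 and 56.5 CPM in subcluster 0 and 99.1, 74.8 and 94.3 CPM in subcluster 2. Subcluster 3 differed by -1.66 ± 0.18 (adjusted p = 7.94e-07) and subcluster 2 by 1.13 ± 0.15 (adjusted p = 9.46e-06), or by 0.93 without replicate 3, under the size for a call. Tnfrsf9 was 10.8 ± 3.99 CPM in subcluster 0 and 1.14 ± 0.0501 CPM in the others, a difference of 3.29 ± 0.32 (adjusted p = 3.53e-07). Tnfsf13b was highest in subcluster 3, at 6.41 ± 0.715 against 2.00 ± 0.796 CPM (1.60 ± 0.29, adjusted p = 0.000225). Tnfrsf26 was higher in subcluster 2 (1.74 ± 0.17), and Tnfsf4 was called higher there by 1.41 ± 0.51, a call that was lost without replicate 3, where the difference was 0.40.

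Fibroblast-like cells were split in the same way, and 7 subclusters were compared: 0 (2466 cells, led by Spp1 and Tnc), 1 (1890, Car8 and Dpp4), 2 (1850, Saa3 and Mmp3), 3 (1586, Eln and Mfap4), 4 (963, Inmt and Sparcl1), 6 (396, cell-cycle genes) and 8 (151, interferon-induced genes). Among 154 tests of 22 members, 23 were called higher and 17 lower, where 6.58% and 5.39% of all tests were. Tnfsf8 was 209, 133 and 179 CPM in subcluster 2, against a mean of 41.9 ± 17.7 CPM in the others, a difference of 2.38 ± 0.19 (adjusted p = 1.00e-08). Its next level, 75.5 ± 24.3 CPM in subcluster 8, did not overlap. Tnfsf15 was 7.85, 11.8 and 8.30 CPM in subcluster 2 against a mean of 2.87 ± 0.652 CPM in the others (1.88 ± 0.27, adjusted p = 2.09e-05), and the next level, 5.98 ± 2.54 CPM in subcluster 3, overlapped it.

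Tnfsf10 was low in fibroblast-like cells except in subcluster 8, where it was 13.5, 23.3 and 15.4 CPM against 0.830 ± 0.100 CPM in the others (4.67 ± 0.36, adjusted p = 4.20e-09). Its receptors Tnfrsf10b and Tnfrsf23 were highest elsewhere. Tnfrsf22 was low throughout, with means of 1.21 to 2.07 CPM, the latter in subcluster 8 on 10 UMIs. Tnfrsf10b was 13.6 ± 0.362 CPM in subcluster 0 (1.51 ± 0.10, adjusted p = 1.41e-10) and 11.8 ± 1.53 CPM in subcluster 6 (1.15 ± 0.13, adjusted p = 2.10e-07), and Tnfrsf23 was 55.7, 51.2 and 52.8 CPM in subcluster 0 (1.63 ± 0.07, adjusted p = 1.40e-13). Tnfsf13b was lower in subclusters 0 and 6 (-1.29 ± 0.13 and -1.89 ± 0.18) and higher in subcluster 8 (1.03 ± 0.21, or 0.82 and not called without replicate 2). Tnfsf9 was highest in subcluster 4, at 25.6, 38.9 and 25.4 CPM (1.43 ± 0.17, adjusted p = 6.53e-07), and lower in 0 and 6 (-1.15 ± 0.16 and -1.25 ± 0.22). A list of dissociation stress genes moved with the latter: it summed to 19107 to 22083 CPM in subcluster 4, 6324 to 8280 CPM in subcluster 0 and 5352 to 6951 CPM in subcluster 6, and its part in the Tnfsf9 levels was not tested.

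**Figure D5:**
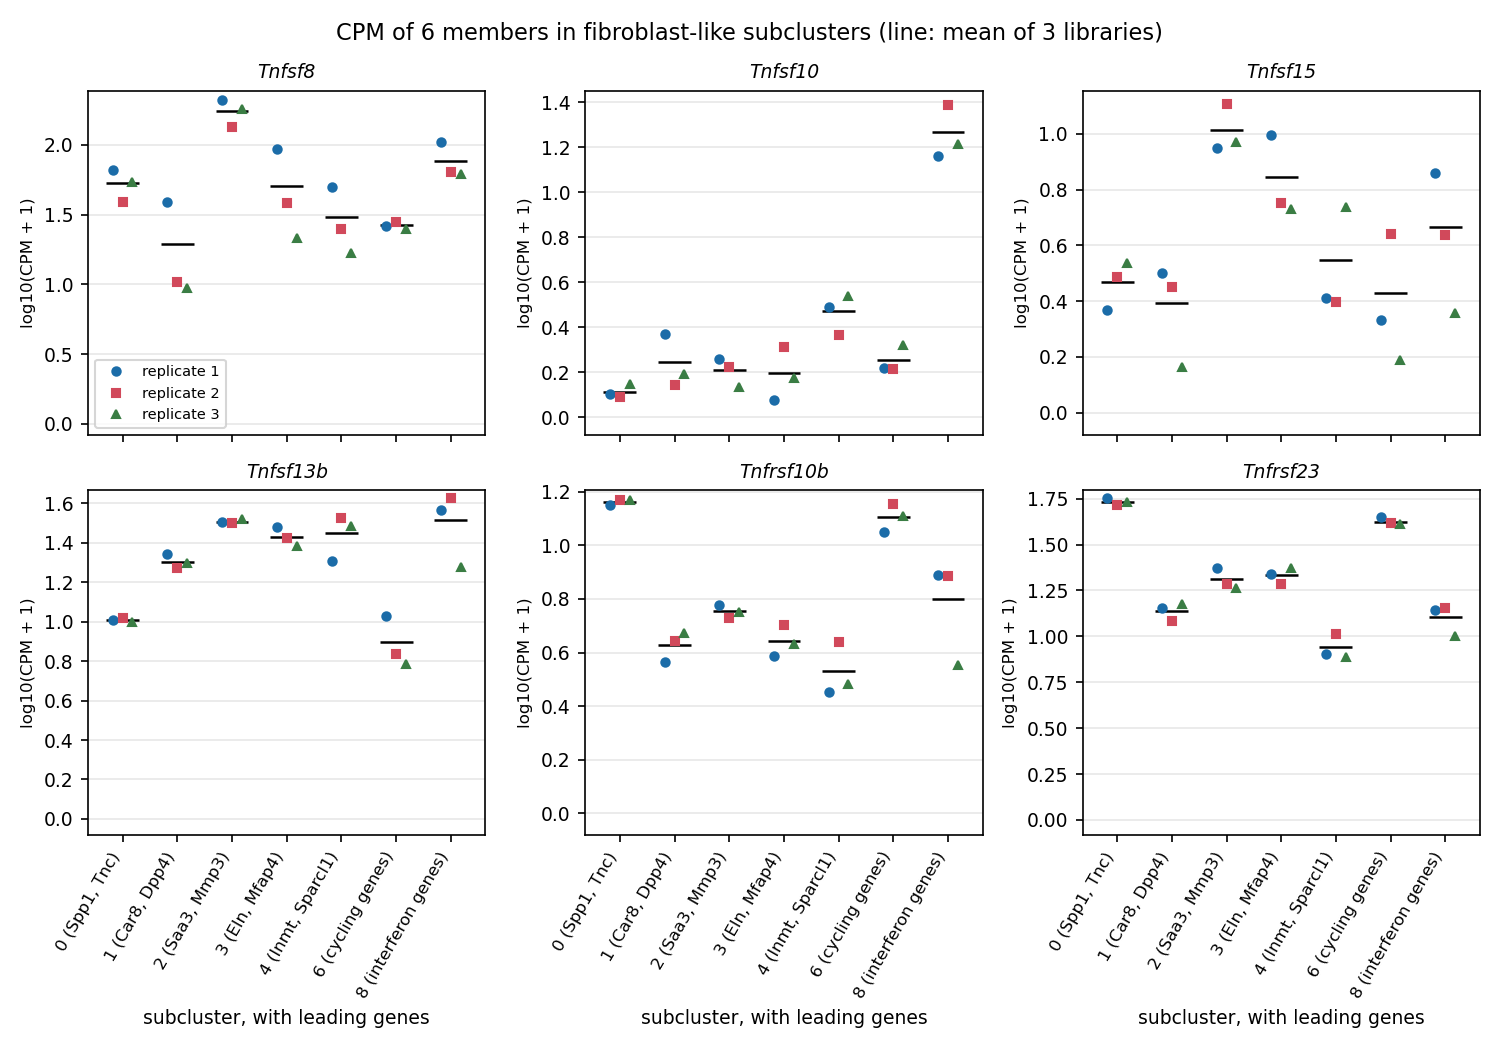
Level of 6 members in the 7 fibroblast-like subclusters, each library as a point and the mean of 3 libraries as a line, as log10 of CPM plus 1. Tnfsf8 is highest in subcluster 2, Tnfsf10 in subcluster 8, and Tnfrsf10b and Tnfrsf23 in subclusters 0 and 6.

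The genes around the family were read from lists, whose counts stand beside the shares of all genes called in the same class. In neutrophil-like cells those shares were 24.3% higher and 26.1% lower. Of 13 NF-kB subunits and feedback genes, 11 were called higher in neutrophil-like cells, with Nfkbia, the inhibitor that NF-kB itself induces, at 3.93 and Tnfaip3, the ubiquitin-editing brake on the pathway, at 3.63 (log2). Tnfaip3 was also called higher in lymphocyte-like cells, by 3.51. In cDC2-like cells 7 of the 13 were higher (11.8% of all genes), while 8 were lower in tenocyte-like cells (7.7%), with Tnfaip3 at -4.09, and 10 in muscle fibre-like cells (24.1%). Of 15 adaptors and ubiquitin ligases, 7 were higher and 2 lower in neutrophil-like cells, with Traf1, a TRAF adaptor, at 4.20 and Birc3, a ubiquitin ligase of the receptor complex, at 3.54. Traf1 was lower in tenocyte-like cells by -5.14 and in mural-like cells by -3.98. Of 7 death signalling genes, 4 were higher in neutrophil-like cells, with Bid, which links caspase-8 to mitochondria, at 3.63 and Cflar, the inhibitor of caspase-8, at 3.11.

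Of 11 tested TNF response genes, 7 were higher and 1 lower in neutrophil-like cells, with the chemokine Cxcl2 at 7.85, and 6 were higher and 1 lower in mural-like cells (22.6% and 7.61% of all genes). The dissociation stress list had 7 of 12 higher in each of these classes, and in mural-like cells it summed to 14603 to 16851 CPM, against 4482 to 5570 CPM in macrophage-like cells; its part in the response genes was not tested. Between the sides, where 19.4% of all genes were called higher and 29.5% lower on the immune-like side, 3 response genes were called higher and 8 lower there, with Cxcl2 at 6.06, Ccl20 at -6.91 and Tnfaip6 at -6.08. Ligand shedding was represented by 6 genes, of which 3 were called higher on the immune-like side and 2 lower. Adam17, the protease that releases TNF, was at 1.32 and its cofactor gene Rhbdf2 at 2.14, while Timp3, its tissue inhibitor, was at -6.31. Relatives outside the symbol rule numbered 8 tested genes, 4 of them called higher on the immune-like side and 3 lower, with Cd40lg, the T-cell ligand of CD40, at 5.11 and the ectodysplasin receptor Eda2r at -6.34.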

How the data were processed

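The authors deposited raw UMI counts per gene and cell barcode for 3 libraries. The file headers name software version 7.0.0, and the submitters' processing notes list Cell Ranger 6.1.2. Genome build, annotation and the handling of intronic reads: not given in the sources used here. From these counts, barcodes under 500 UMIs or 200 genes, or over 20% mitochondrial UMIs, were removed, and doublets were called at 0.8% per 1000 cells. Cells were clustered with scanpy 1.11.5 (2000 variable genes without the members and list genes, 30 components, Leiden resolution 1) and named from marker lists. UMIs were summed per library and class and tested with edgeR 4.0.16 (TMM, filterByExpr, quasi-likelihood, library as block), Benjamini-Hochberg adjusted over all genes. The block pairs sums of the same library, that is, of the same suspension. The scripts were tested on simulated counts. The members, marker lists and pathway lists were chosen with earlier results of these data known. Described with values were members at 10 CPM or more in a class or called in one, and up to 3 called genes per list and direction. Gene IDs matched the reference names for 32158 of 32285 genes. A test for an outlying library needs 4 samples and was not made.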

Additional observations from a re-analysis of the deposited data

How the results depend on the processing

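With every class weighted equally, the comparison of sides called 10 of 25 members higher and 4 lower, and 2012 and 3397 of 13228 genes. The main comparison of sides tested 32 members and 17543 genes. Under equal weights Tnfsf12 became -1.45, Tnfsf13b 1.48, Tnfrsf22 -0.26, Tnfrsf23 0.28 and Tnfrsf25 -2.99. Leaving out each replicate in turn, Tnfrsf25 ranged from -0.29 (without replicate 3) to 0.63. Lower calls between classes numbered 77 with DESeq2 and 138 against all other cells pooled, and pooling turned Tnfrsf10b (-0.37), Tnfsf12 (-0.33) and Tnfsf9 (-0.022) in fibroblast-like cells, Tnfrsf13b in neutrophil-like cells (-0.14) and Tnfsf8 in blood endothelial-like (-1.02), lymphatic endothelial-like (-2.10) and mural-like cells (-1.98). Tnfsf8 in lymphatic endothelial-like cells ranged from -1.19 (without replicate 2) to 3.55, and Tnfsf12 in muscle fibre-like cells 0.13 with no doublet removal. The cause was not tested.

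Leaving out each replicate in turn gave 18 to 19 members higher and 7 to 8 lower between sides (3286 to 3470 and 4995 to 5171 of all genes), 78 to 87 and 23 to 31 between classes, 3 to 5 and 4 to 5 between macrophage-like subclusters, and 22 to 25 and 15 to 16 between fibroblast-like subclusters. Without the replicate block the counts were 19 and 7 between sides (3410 and 5199 of all genes), 82 and 34 between classes, 4 and 5, and 22 and 17. RLE scaling, no scaling factors and leaving out subclusters led by another class (the last pair chosen after seeing the data), no filter on low counts and at least 1000 genes per cell kept every count within 1.5 times. Depth limits muscle fibre-like and lymphocyte-like values most, since their sums were the smallest. Levels at or under 3 UMIs in a class, summed over the 3 libraries, give no fold change.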

Other observations

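Clusters that met no class by their markers (528 cells in 13 clusters) entered no comparison. In 1 of them, 13 cells whose leading genes included Ighm, Igkc, Jchain and Ms4a1, markers of B cells and of plasma cells were both high, and summed over the libraries the cluster held 210 CPM of Tnfrsf13b, 75.9 CPM of Tnfrsf17 and 61.5 CPM of Ltb. Its Tnfrsf17 level rested on 21 UMIs, and no tested class passed 0.219 CPM. A cluster of 71 cells and another of 50 cells, whose best-scoring lists were dendritic, held 113 and 114 CPM of Tnfsf9. Another of 48 cells, with T-cell and monocyte markers at similar scores, held 241 CPM of Tnfrsf9, 176 CPM of Tnfrsf4 and 212 CPM of Tnf.

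Tnfsf8 in perineurial-like cells spread from 129 to 1660 CPM between libraries, with 3 cells in the smallest, and Tnfsf15 was at 44.9 CPM or more in each of the 3. Of the classes with levels only, satellite or myoblast-like cells held 10 CPM or more on average of 7 members: Tnfrsf12a (135 CPM), Fas (65.1), Tnfrsf1a (60.3), Tnfsf12 (51.6), Tnfrsf21 (31.4), Tnfrsf1b (30.5) and Tnfrsf19 (12.4).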
